A study of Mus musculus with 20 samples.

Results

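The genes described here encode the enzymes that write, copy and remove cytosine methylation in mouse cells: Dnmt1, Dnmt3a, Dnmt3b, Tet1, Tet2, Tet3 and Tdg. They were chosen by symbol, as 7 of the 41115 genes in the count tables, and all 7 were found. The study followed poly-A messenger RNA of mouse cells labelled spleen, in 20 libraries of 2 mice, 1 for each arm. The stimulated arm received LPS, a component of the bacterial outer membrane that activates B cells, with interleukin 4 (IL4) and transforming growth factor beta (TGFb). These were given together in culture as a stimulation cocktail. The untreated arm received none of these. Each arm has 1 library at 0, 15 and 30 min and at 1, 2, 3, 6, 12, 24 and 48 h. The sources used here do not give strain, age or genotype.

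DNMT1 copies methylation onto the new strand behind the replication fork, whereas DNMT3A and DNMT3B place methyl groups on sites that had none. TET1, TET2 and TET3 oxidise 5-methylcytosine to 5-hydroxymethylcytosine and further, with iron and 2-oxoglutarate as cofactors. TDG, a thymine DNA glycosylase, cuts out the most oxidised forms and also thymine mispaired with guanine, after which base excision repair restores cytosine. In B cells these enzymes act while activated cells divide and switch antibody class.

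With 1 library per arm and time, the times of a phase stood in place of replicates: early (15 min, 30 min and 1 h), middle (2, 3 and 6 h) and late (12, 24 and 48 h). Errors and p-values therefore measure the spread between times and not between animals, and the arm cannot be told apart from the mouse. Totals ran from 36873155 to 60918651 counts per library, so 3 counts corresponded to 0.0492 to 0.0814 CPM (counts on a common scale of library size), for counting error only. All 8 B cell markers were detected, with a summed level of 1972 to 2407 CPM in the untreated and 1494 to 2468 CPM in the stimulated libraries. Of 5 plasma cell markers 3 were detected (Prdm1, Xbp1 and Igj), with sums of 686 to 1053 CPM untreated and 509 to 911 CPM stimulated. The plasma cell markers Sdc1 and Tnfrsf17 had at most 8 counts. Of 6 T cell markers 2 were detected (Cd4 and Lck), with sums of 11.9 to 22.2 and 10.5 to 16.3 CPM, and Cd3e had at most 14 counts. Sums for macrophage and monocyte markers (4 of 7 detected) were 25.2 to 61.3 CPM in the untreated and 40.4 to 96.7 CPM in the stimulated libraries, with Lyz2 and Cd14 at no more than 4 counts. Those for dendritic markers (3 of 4) were 17.2 to 29 and 28.3 to 64.7 CPM. The part of these other cells in the results below was not tested. Sequencing lanes 1 and 4 held untreated and stimulated libraries only, respectively, while lane 2 held 1 untreated library (2 h) and lane 3 held 1 stimulated library (15 min). No lane held the pair of libraries of any time, so the paired differences could not be recomputed within a lane. Within each arm lane also went partly with phase. The stimulated 2, 3 and 6 h libraries were all in lane 4. Lane 1 held the untreated libraries of 0 and 15 min and of 1, 12 and 24 h, and none of 2 to 6 h.

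Promoters are shown for 4 genes picked after their values were seen, Dnmt1 and Tdg, which rose together with time, and Tet2 and Tet3, which fell together at 2 to 6 h. Each is the 250 bases upstream of a RefSeq transcript start (GRCm38.p6), 5′ to 3′ on the gene's strand, with CpG dinucleotides, the substrate of these enzymes, in capitals. They lie at chr9:20952624-20952873 (minus strand) for Dnmt1, chr10:82629588-82629837 (plus) for Tdg, chr3:133544391-133544640 (minus) for Tet2 and chr6:83441679-83441928 (minus) for Tet3.
Dnmt1: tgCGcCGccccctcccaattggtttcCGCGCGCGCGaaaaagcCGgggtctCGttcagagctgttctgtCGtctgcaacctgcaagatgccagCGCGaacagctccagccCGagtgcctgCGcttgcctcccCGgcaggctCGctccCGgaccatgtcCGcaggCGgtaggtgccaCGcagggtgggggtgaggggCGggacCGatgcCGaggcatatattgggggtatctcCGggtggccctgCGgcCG
Tdg: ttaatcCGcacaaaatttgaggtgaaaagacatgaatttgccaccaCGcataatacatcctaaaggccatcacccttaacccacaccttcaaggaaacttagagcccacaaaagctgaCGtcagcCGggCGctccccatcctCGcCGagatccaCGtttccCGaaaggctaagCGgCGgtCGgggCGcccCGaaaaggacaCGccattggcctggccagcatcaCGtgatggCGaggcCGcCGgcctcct
Tet2: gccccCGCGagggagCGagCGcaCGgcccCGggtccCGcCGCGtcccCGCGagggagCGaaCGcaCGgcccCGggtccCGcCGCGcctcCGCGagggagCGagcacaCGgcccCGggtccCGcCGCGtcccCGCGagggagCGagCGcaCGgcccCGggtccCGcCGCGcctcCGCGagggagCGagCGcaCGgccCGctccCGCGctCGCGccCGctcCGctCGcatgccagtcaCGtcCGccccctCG
Tet3: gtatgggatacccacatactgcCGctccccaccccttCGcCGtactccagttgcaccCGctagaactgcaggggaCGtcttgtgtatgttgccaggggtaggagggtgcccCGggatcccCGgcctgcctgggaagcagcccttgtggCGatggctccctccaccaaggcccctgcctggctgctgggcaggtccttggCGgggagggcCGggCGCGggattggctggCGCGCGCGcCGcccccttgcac
The Tet2 promoter held 51 CpG, and 0.067% of 32851 RefSeq promoters held as many, against a median of 6. The Dnmt1 promoter shown had 26, Tdg 19 and Tet3 17. Dnmt1 has 2 more RefSeq starts, whose windows (chr9:20952980-20953229 and chr9:20959889-20960138, minus strand) held 7 and 2 CpG. The Dnmt1 promoter shown, chosen for its CpG, lies within the annotated span of the gene and downstream of both these starts. It is thus not upstream of every Dnmt1 transcript. In transcripts from those 2 starts it is transcribed sequence and not a promoter. An E2F word (TTTGGCGC or TTTCGCGC, either strand) was found in 0.654% of all promoters and, among the 11 promoter entries of the 7 genes, only in the Dnmt1 promoter shown. The word lies 219 bases upstream of the start used here, but downstream of the other 2 Dnmt1 starts. The Sp1 word GGGCGG occurred in 32.7% of promoters and in those of Dnmt1, Tet2 and Tet3 shown here. It was in neither of the other 2 Dnmt1 windows. The E-box CACGTG occurred in 6.02% and, among the promoters shown, in that of Tdg. These matches are descriptions of sequence and no binding was measured.

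Per length of exon, Dnmt1 was the most abundant of the 7 genes in all 20 libraries and Tet1 the least. The length joins all annotated exons of a gene (7377 bases for Dnmt1, 16870 for Tet2, 5374 for Tdg), whichever transcripts were present. Levels set between genes, and the size of the ratios below, thus depend on the annotation. In RPKM (CPM per kilobase of exon), Dnmt1 had a lowest, median and highest level of 40.6, 52.1 and 86.5. For Dnmt3a these were 11.1, 12.9 and 17.5 RPKM, and Dnmt3a was second in every library except 3 in which Tdg was second (untreated 24 h, stimulated 6 and 12 h). The levels of Tdg (7.06, 10.5 and 14.4), Dnmt3b (7.38, 8.52 and 13.6), Tet3 (5.26, 7.09 and 11) and Tet2 (3.26, 7.01 and 8.48 RPKM) overlapped and changed order between libraries. Tet1 had 0.0351, 0.166 and 0.326 RPKM, and its lowest library (stimulated 3 h) held 23 counts, so its values are the least precise. The RPKM of the 3 Dnmt genes summed to 3.31 to 3.96 times that of the 3 Tet genes in the untreated libraries from 0 min to 1 h and to 3.23 to 3.44 times in the stimulated ones. From 2 to 48 h the ratio was 6.19 to 9.57 in the untreated arm and 4.89 to 9.39 in the stimulated arm. In both arms every library from 2 h on thus had a higher ratio than any library up to 1 h.

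**Figure D1:**
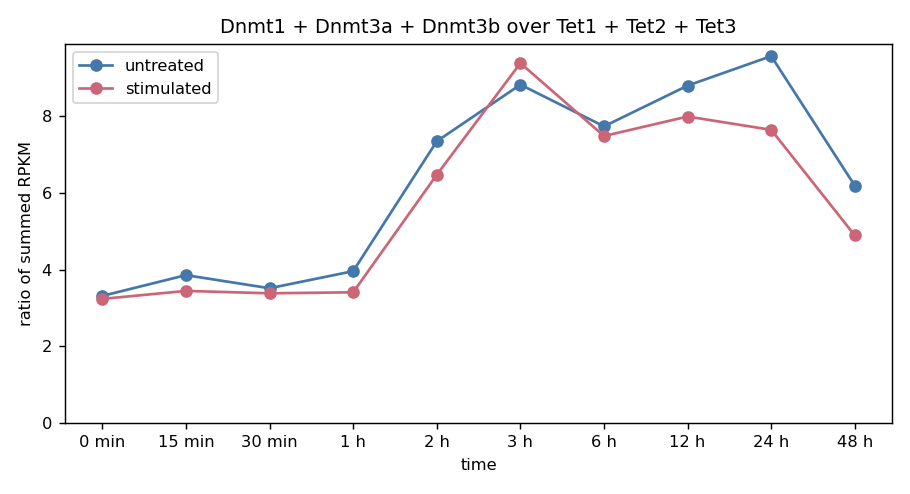
Ratio of summed RPKM, Dnmt1, Dnmt3a and Dnmt3b over Tet1, Tet2 and Tet3, against time, with 1 library per point and a line per arm. The ratio is below 4 up to 1 h and above 4.5 from 2 h in both arms.

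From the early to the late phase Dnmt1 and Tdg rose and Tet3 fell in both arms, while the other 4 genes did not pass the test. Tet1, at -0.88 ± 0.39 in the stimulated arm (edgeR adjusted p 0.069), passed with DESeq2 (-0.88), with limma-voom (-0.94), without 3 h (-0.88) and without 48 h (-1.34). In bulk RNA, more cells of a type and more RNA per cell cannot be told apart. Of 12139 genes tested, 22.6% were called higher and 20% lower in the untreated arm, and 29.2% and 25.7% in the stimulated arm. With 2 genes higher and 1 lower of 7 in each arm, the number called is near the share of all genes. The median log2 fold change of the 7 genes was 0.10 (untreated) and 0.12 (stimulated), beside -0.01 and 0.01 over all genes. With library totals as the only scaling, the median of all genes was -0.12 in the untreated and -0.13 in the stimulated arm, and the 3 genes kept their direction and their calls.

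Dnmt1 (chromosome 9, 20907209 to 20959888, minus strand, GRCm38), the maintenance methyltransferase, was higher in the middle and late libraries than in the early ones of each arm. In the untreated arm it had 301 CPM at 0 min, 336, 309.9 and 322 CPM in the early phase, 403, 451 and 498 CPM in the middle phase and 631, 638 and 525 CPM at 12, 24 and 48 h. In the stimulated arm the levels were 299.6 CPM at 0 min, then 310.1, 319 and 326, then 346, 366 and 429, then 566, 559.5 and 422 CPM. The untreated phases did not overlap, and in the stimulated arm the 48 h library was just below that of 6 h. The 48 h library was the lowest of the late phase in both arms. The late minus early log2 fold change was 0.90 ± 0.12 (SE, 3 times per phase) in the untreated arm and 0.73 ± 0.12 in the stimulated arm (adjusted p 0.00026 and 0.0002, edgeR quasi-likelihood F-test), a rise of 1.87-fold and 1.65-fold.

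Tdg (chromosome 10, 82629828 to 82650799, plus strand), the glycosylase, also rose in both arms. Untreated levels were 38.8 CPM at 0 min, 44.7, 41.3 and 48 early, 55.4, 57.6 and 66.4 in the middle and 61.8, 77.4 and 61.4 CPM late. Stimulated levels were 37.9 CPM at 0 min, then 41.7, 38.9 and 43.2, then 55.8, 63.5 and 70.8, then 71.8, 75.1 and 58.7 CPM. All early libraries lay below all later ones in each arm. Late minus early, the log2 fold change was 0.59 ± 0.13 untreated and 0.76 ± 0.13 stimulated (edgeR adjusted p 0.0024 and 0.0002), or 1.51-fold and 1.7-fold. Tdg shares 367 bases of exon with Glt8d2 on the opposite strand, which had at most 23 counts in any library.

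Tet3 (chromosome 6, 83362373 to 83459084, minus strand), 1 of the 3 dioxygenases, fell and stayed low. In the untreated arm it had 166 CPM at 0 min, 156, 159.6 and 145 early, 116, 104 and 111 in the middle and 102, 87.9 and 120.2 CPM late. In the stimulated arm it had 182 CPM at 0 min, then 182, 183 and 170.4, then 103, 88.3 and 114, then 113, 101 and 121 CPM. No library from 2 h on reached the early range of its arm. Late minus early it fell by 0.56 ± 0.11 (log2) in the untreated and by 0.65 ± 0.11 in the stimulated arm (edgeR adjusted p 0.002 and 0.00031).

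**Figure D2:**
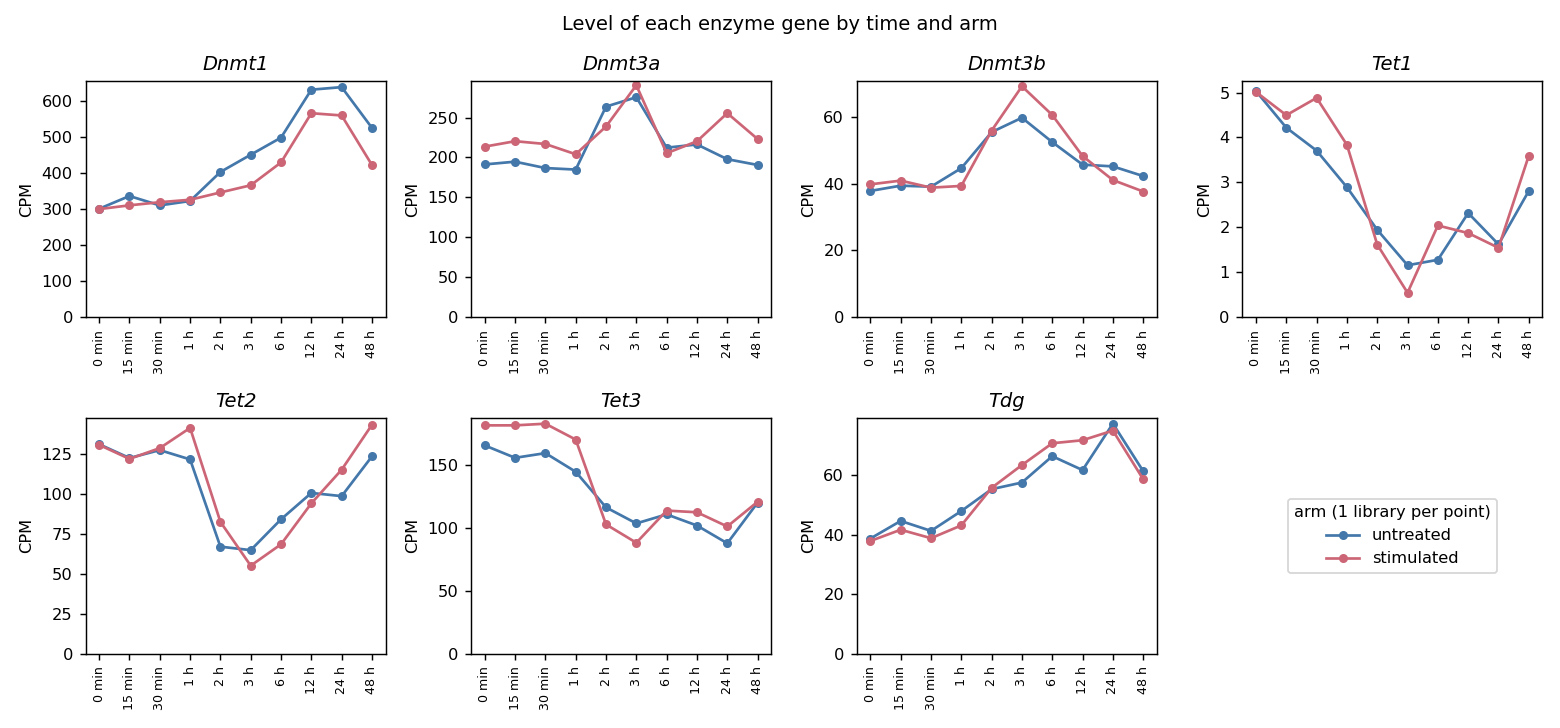
CPM (TMM-scaled) of each gene at the 10 times, with 1 library per point, untreated in blue and stimulated in red, and each vertical axis starting at 0. Dnmt1 and Tdg are higher and Tet3 lower in the late than in the early libraries of both arms, and Tet2 has its lowest values at 2 to 6 h.

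In the middle phase the 3 Tet genes were lower and Dnmt3b was higher than in the early phase of both arms. Tet2 then rose again in both arms, and Dnmt3b fell again in the stimulated arm. Between the early and middle phases all 7 genes changed in the untreated arm, 4 higher and 3 lower, where 13.6% of all genes were called higher and 11.9% lower. In the stimulated arm 5 changed, 2 higher and 3 lower, where the shares were 22.1% and 19.3%. Their median log2 fold change was 0.39 and 0.18, beside 0.00 and 0.00 over all genes.

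Tet2 (chromosome 3, 133463679 to 133545139, minus strand) had its lowest levels at 2 to 6 h and then came back. The untreated libraries had 131 CPM at 0 min, 122, 127 and 121 early, 66.9, 64.7 and 84 in the middle and 100.5, 98.5 and 123 CPM late. The stimulated libraries had 131 CPM at 0 min, then 122, 128 and 141, then 82.4, 55 and 68.4, then 94, 115 and 143 CPM. The middle libraries overlapped with neither the early nor the late ones. Tet2 fell by 0.80 ± 0.17 (log2) untreated and by 0.95 ± 0.17 stimulated (edgeR adjusted p 0.0049 and 0.00075), then rose from middle to late by 0.61 ± 0.17 and 0.82 ± 0.17 (adjusted p 0.028 and 0.0039). Late minus early, its log2 fold change of -0.19 ± 0.16 and -0.12 ± 0.16 did not pass (edgeR adjusted p 0.35 and 0.55).

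Tet3 fell by 0.49 ± 0.11 untreated and 0.83 ± 0.11 stimulated between the early and middle phases (edgeR adjusted p 0.0078 and 0.00014). Tet1 (chromosome 10, 62804570 to 62908996, minus strand) fell by 1.32 ± 0.40 and 1.67 ± 0.40 (edgeR adjusted p 0.027 and 0.0049), from 2.89 to 4.22 CPM early to 1.15 to 1.94 CPM in the untreated and from 3.84 to 4.88 to 0.542 to 2.04 CPM in the stimulated arm. All 3 dioxygenase genes were thus lower in every middle library than in any early library of the same arm.

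Dnmt3b (chromosome 2, 153649450 to 153687730, plus strand), a de novo methyltransferase, mirrored Tet2. Its untreated levels were 37.9 CPM at 0 min, 39.4, 39.1 and 44.7 early, 55.5, 59.8 and 52.5 in the middle and 45.8, 45.2 and 42.3 CPM late. Stimulated levels were 39.8 CPM at 0 min, then 41, 38.8 and 39.4, then 56, 69.3 and 60.7, then 48.3, 41.1 and 37.7 CPM. In both arms the 3 middle libraries stood above all others, with the highest at 3 h. Dnmt3b rose by 0.43 ± 0.10 untreated and 0.62 ± 0.10 stimulated (edgeR adjusted p 0.0081 and 0.00038), and from middle to late it fell by 0.50 ± 0.10 in the stimulated arm (adjusted p 0.0035), while -0.30 ± 0.10 in the untreated arm did not pass (adjusted p 0.055). Over the 20 libraries Pearson's r between log2 levels of Dnmt3b and Tet2 was -0.977, with -0.964 within the untreated and -0.991 within the stimulated arm. The points share libraries and the course of time, and r is given as a description.

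Dnmt3a (chromosome 12, 3806007 to 3914443, plus strand), the other de novo enzyme, ranged from 185 to 290.4 CPM over all libraries. Untreated levels were 191 CPM at 0 min, 195, 187 and 185 early, 264, 275 and 212 in the middle and 216, 198 and 191 CPM late. It rose by 0.39 ± 0.12 between the early and middle phases of the untreated arm (edgeR adjusted p 0.026). In the stimulated arm 0.18 ± 0.12 did not pass (adjusted p 0.24), with 220.3, 217 and 204 CPM early and 239, 290.4 and 205 CPM in the middle. The 3 h library was the highest of each arm. Dnmt1 rose by 0.46 ± 0.12 untreated (edgeR adjusted p 0.013), and its 0.24 ± 0.12 in the stimulated arm did not pass (adjusted p 0.12). Tdg rose by 0.40 ± 0.12 and 0.60 ± 0.13 (adjusted p 0.029 and 0.0021).

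From the middle to the late phase 6.19% of genes were called higher and 5.83% lower in the untreated arm, and 11.5% and 10.1% in the stimulated arm. Dnmt1 and Tet2 rose in both arms, and Dnmt3b fell in the stimulated arm. Dnmt1 rose by 0.44 ± 0.12 and 0.49 ± 0.12 (edgeR adjusted p 0.028 and 0.011).

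Many calls into and out of the middle phase were lost when the phases were divided elsewhere or single times were left out, as were many calls over all genes. With 1 h moved to the middle and 6 h to the late phase, 0 of 7 genes were called between early and middle in either arm, with adjusted p of 0.32 to 0.39 untreated and 0.11 to 0.44 for the 5 stimulated calls. The untreated log2 fold changes were then 0.26 to 0.42 for the 4 higher genes and -0.39, -0.58 and -1.0 for Tet3, Tet2 and Tet1. Over all genes this division called 0 of 12139 higher or lower untreated (1929 at an unadjusted p under 0.05) and 73 higher and 26 lower stimulated. From middle to late the moved limits left 1 call (Dnmt1) in the untreated arm, and in the stimulated arm Dnmt3b and Tet2 lost theirs (adjusted p 0.38 and 0.6). In the untreated arm the 7 calls became 4 without 15 min, 1 (Tet2) without 30 min and 3 without 3 h. Calls over all genes went from 1650 higher and 1439 lower to 602 and 539, 363 and 335, and 460 and 417, respectively. There Dnmt1 lost its call without 30 min or 3 h (0.44 and 0.46, adjusted p 0.069 and 0.06). Dnmt3b and Tet3 lost theirs without 30 min (0.40 and -0.46, adjusted p 0.06 and 0.063). Tet1 and Tdg lost theirs without 15 min, 30 min, 3 h or 6 h (-1.29 to -1.18 and 0.32 to 0.43, adjusted p 0.054 to 0.13). Dnmt3a lost it without any of 15 min, 30 min, 1, 2 or 3 h (0.31 to 0.41, adjusted p 0.062 to 0.1), with lane as a term (0.42, adjusted p 0.076) and with library totals (0.31, adjusted p 0.053). In the stimulated arm Dnmt1 passed without 48 h (0.24) and Dnmt3a without 6 h (0.29, log2). The untreated middle to late calls of Dnmt1 and Tet2 became 0 without any of 15 min, 30 min, 1, 2, 3 or 24 h and 1 without 12 h, whereas leaving out 6 h gave 4, with Dnmt3a (-0.39) and Dnmt3b (-0.34) added. With lane as a term neither passed (0.31 and 0.72, adjusted p 0.26 and 0.11), nor did any but 1 of all 12139 genes. The stimulated Dnmt1 rise from middle to late lost its call without 2, 3 or 24 h (0.40, 0.46 and 0.42, edgeR adjusted p 0.053, 0.074 and 0.055) and with lane as a term (0.36, adjusted p 0.099).

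**Figure D3:**
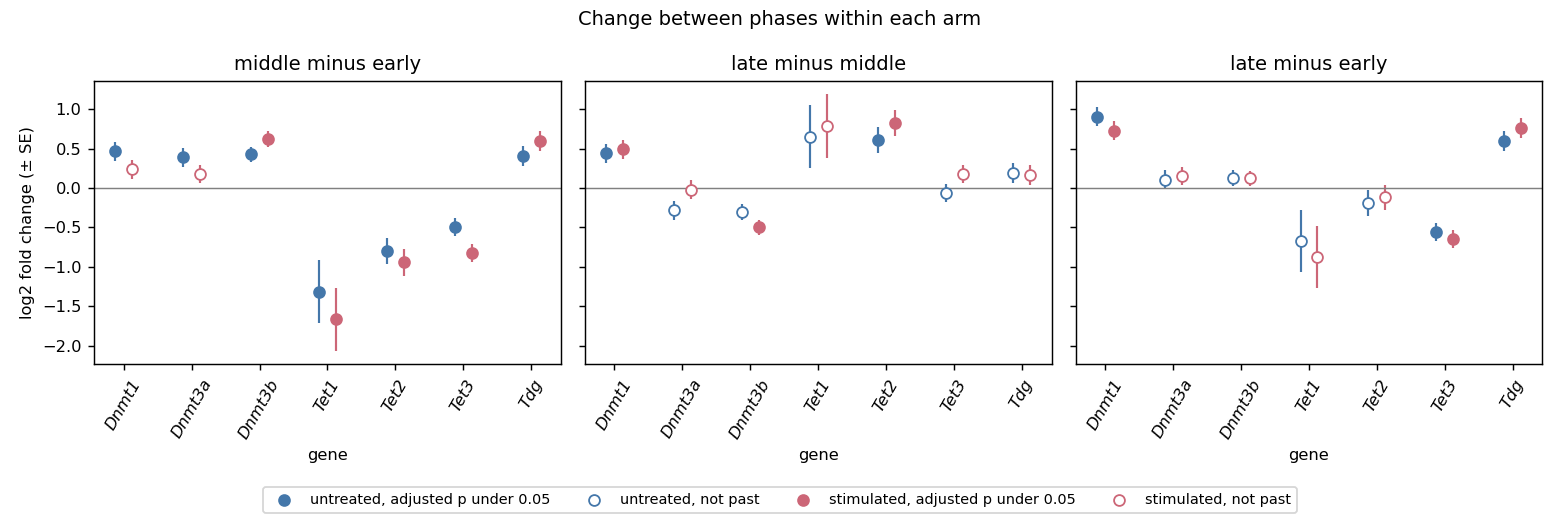
Log2 fold change between phases within each arm, 1 panel per pair of phases, with points for the estimate and bars for ± 1 SE, filled where the adjusted p was under 0.05. The Tet genes are below 0 and Dnmt3b above 0 from early to middle, and only Dnmt1, Tet3 and Tdg are filled from early to late.

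Of the 7 genes, the numbers called between the arms were 0 (early), 1 (middle phase) and 2 (late phase). At 0 min the log2 ratio of stimulated over untreated CPM was 0.16 for Dnmt3a, 0.13 for Tet3 and 0.07 for Dnmt3b, and within 0.03 of 0 for Dnmt1, Tet1, Tet2 and Tdg. In the early phase 0 of 7 genes passed the edgeR test, and DESeq2 and limma-voom also called 0, with 3 at an unadjusted p under 0.05. Of 12042 genes tested 0.598% were called higher and 1.64% lower, and 2014 had an unadjusted p under 0.05. The 3 were Dnmt3a (0.16 ± 0.06, edgeR adjusted p 0.22), Tet3 (0.20 ± 0.05, adjusted p 0.093) and Tdg (-0.13 ± 0.06, adjusted p 0.28), of which the first had about the same ratio at 0 min.

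Dnmt1 was lower in the stimulated arm from 2 h on. Its log2 ratio was -0.22, -0.30 and -0.21 at 2, 3 and 6 h and -0.16, -0.19 and -0.31 at 12, 24 and 48 h, after values between -0.12 and 0.04 up to 1 h. At each of these 6 times the stimulated library was the lower of the pair, although the arms' ranges overlapped across times. The difference was -0.26 ± 0.05 in the middle phase and -0.23 ± 0.05 in the late phase (edgeR adjusted p 0.0036 and 0.0027), or 1.2-fold and 1.18-fold lower. In the middle phase Dnmt1 was the only gene of the 7 called, where 10.2% of all genes were called higher and 10.3% lower. Tet3 (-0.14 ± 0.06, adjusted p 0.095) passed as well without 6 h (-0.23) or with library totals (-0.22). In the late phase Dnmt1 and Dnmt3a were called, where 17.8% were higher and 18.3% lower, so the number called is near the background share. Over all 9 times after 0 min the mean Dnmt1 difference was -0.18 ± 0.04 (edgeR adjusted p 0.011, lower at 7 of 9 times), with background shares of 10.6% higher and 11.7% lower.

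The Dnmt1 difference kept its direction but not its call under several fits. Where time was a spline and lane was added to the model, it was -0.23 in the middle and -0.24 in the late phase (edgeR adjusted p 0.57 and 0.51). That model called 96 of 12042 genes higher and 89 lower in the late phase, where the model with time as a factor called 2149 and 2202. Relative to the 0 min pair it was -0.24 and -0.19 (adjusted p 0.31 and 0.27). A spline of time without lane gave -0.17 in the late phase (adjusted p 0.2), and the moved phase limits gave -0.18 in the middle phase (adjusted p 0.14).

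Dnmt3a was higher in the stimulated arm late, with 220.2, 255 and 223 CPM beside 216, 198 and 191 CPM untreated, and the ranges did not overlap. The difference was 0.19 ± 0.06 (edgeR adjusted p 0.029, higher at 3 of 3 times). It lost its call without 24 h (0.13, adjusted p 0.19) or without 48 h (0.17, adjusted p 0.12). Relative to the 0 min pair it was 0.07 (adjusted p 0.79), and with lane and a time spline 0.05 (adjusted p 0.96).

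For the other 5 genes the late differences were -0.09 ± 0.07 for Dnmt3b, 0.00 ± 0.26 for Tet1, 0.10 ± 0.11 for Tet2, 0.10 ± 0.06 for Tet3 and 0.02 ± 0.06 for Tdg, and none passed (edgeR adjusted p 0.33, 1.0, 0.5, 0.16 and 0.79). The SE of the Tet1 difference is as large as the whole Dnmt1 difference.

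Whether the arms differed more late than early was tested as an interaction. With edgeR 0 of 7 genes passed, as with DESeq2 and limma-voom, where 10.2% of genes were called higher and 9.52% lower. At an unadjusted p under 0.05 there was 1 (Dnmt1, -0.19 ± 0.07, edgeR adjusted p 0.063), beside 4028 of all 12042 genes tested. Without 15 min or without 12 h Dnmt1 passed, at -0.25 and -0.22. The middle minus early interaction, added after the data had been seen, called Tet3 alone at -0.34 ± 0.08 (edgeR adjusted p 0.031), with background shares of 3.58% higher and 2.81% lower. Dnmt1 (-0.22 ± 0.07, adjusted p 0.068) passed this interaction too with library totals (-0.28, adjusted p 0.023), with the filter at 5 CPM (-0.23, adjusted p 0.049) and without 48 h (-0.22, adjusted p 0.039). Tet3 had log2 ratios of 0.22, 0.20 and 0.23 in the early phase and of -0.18, -0.23 and 0.04 at 2, 3 and 6 h. This call was lost without any of 15 min, 30 min, 1, 2 or 3 h (adjusted p 0.12, 0.1, 0.09, 0.068 and 0.14).

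**Figure D4:**
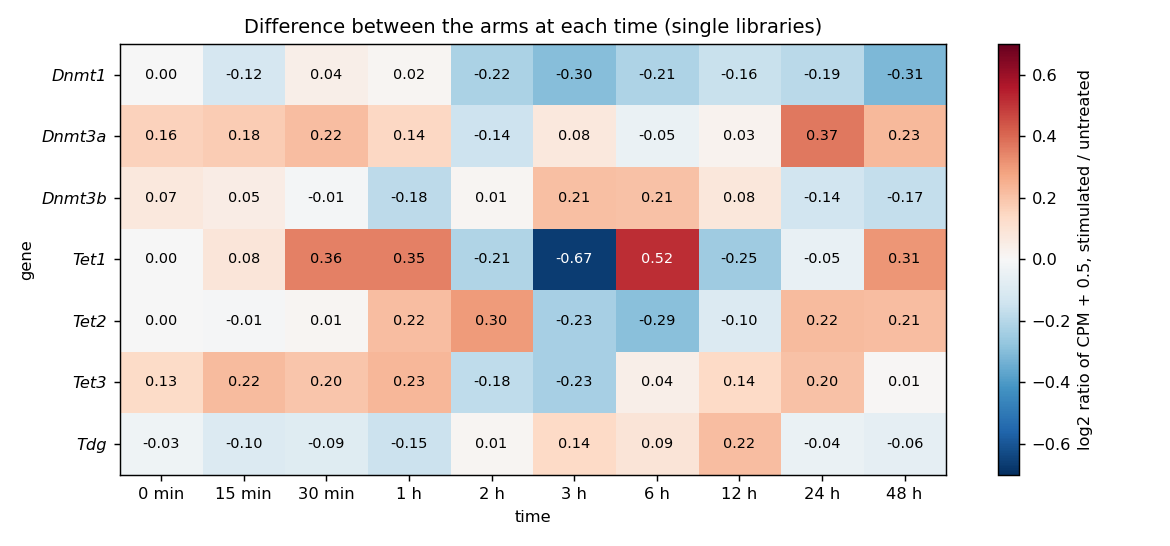
Log2 ratio of CPM plus 0.5, stimulated over untreated, for each gene (rows) and time (columns), 1 library per arm, with red for higher and blue for lower in the stimulated arm. Dnmt1 is negative at every time from 2 h, and the widest values are those of Tet1, the gene with the fewest counts.

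Other genes of the same pathway were taken from fixed lists. Of 7 partners of maintenance methylation, 6 rose late over early in both arms (Uhrf1, Hells, Cdca7, Pcna, Usp7 and Lig1) and Uhrf2 fell, where 22.6% of all genes were called higher and 20% lower untreated and 29.2% and 25.7% stimulated. Uhrf1, which brings DNMT1 to hemimethylated sites, rose by 1.12 ± 0.15 untreated and 1.25 ± 0.15 stimulated (edgeR adjusted p 0.00029 and 3e-05). Its levels were 171 and 166 CPM at 0 min and 406 to 505 and 345 to 475 CPM late. Unlike Dnmt1, which was highest at 12 or 24 h, Uhrf1 was highest at 3 h in both arms (581 and 599 CPM). Uhrf2 fell by 0.76 ± 0.17 and 0.67 ± 0.17 (edgeR adjusted p 0.0037 and 0.0042). With 30 min left out, the number of maintenance methylation partners higher in the untreated arm was 4. Between the arms the late median of this list was -0.05.

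Genes of DNA replication, with which Dnmt1 acts, rose with it: 17 of 21 tested were higher late than early in each arm, with medians of 0.54 and 0.52, where 22.6% and 29.2% of all genes were. Over the 20 libraries the mean log2 level of these 21 genes had a Pearson r of 0.968 with Tdg, 0.875 with Dnmt1, 0.656 with Dnmt3b, 0.437 with Dnmt3a, -0.671 with Tet2, -0.851 with Tet1 and -0.938 with Tet3, as a description of libraries that share the course of time. In the late phase 8 of the 21 were lower in the stimulated arm (among them Mcm2, Mcm5, Cdt1 and Rrm2) and 2 higher (Gins2 and Tyms), where 18.3% and 17.8% of all genes were, with a median of -0.08, beside -0.23 for Dnmt1. These DNA replication counts became 1 lower and 1 higher without 24 h and 3 and 0 without 48 h, and library totals gave 10 and 0. The part of replication in the Dnmt1 difference was not tested.

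Of 6 deaminase and Gadd45 genes, which have been linked to removal of methylation through DNA repair, 5 were higher and 1 lower late in the stimulated arm, where 17.8% and 18.3% of all genes were. With lane and a time spline in the model, no gene of the partner lists was called late between arms. Apobec1, an RNA-editing deaminase, was higher by 0.91 ± 0.16 (adjusted p 0.0011) and Gadd45b by 1.11 ± 0.33 (adjusted p 0.022), the latter also in the middle phase (1.29 ± 0.33, adjusted p 0.018). Gadd45b lost its late call without 24 h or 48 h (adjusted p 0.11 and 0.1) and its middle call without 3 h or 6 h (0.096 and 0.094). Gadd45a was the gene that was lower (-1.05 ± 0.22, adjusted p 0.0035). The Gadd45 genes, which respond to stress and DNA damage, were thus called in opposite directions. Of the deaminases and Gadd45 list, 4 were higher without 24 h and 3 without 48 h.

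Of 10 base excision genes tested, those that act after or beside TDG, 5 were lower late in the stimulated arm (Smug1, Mbd4, Neil3, Xrcc1 and Parp1) and 1 higher (Apex1, the endonuclease that cuts abasic sites). Over all genes 18.3% were lower and 17.8% higher. Apex1 already differed at 0 min, with 83.9 CPM stimulated and 74 CPM untreated, and was higher at 9 of 9 later times. Its late minus early interaction was 0.07 ± 0.06 (edgeR adjusted p 0.5). Mbd4, a second glycosylase for thymine mispaired with guanine, which also stands in the list of methyl-CpG readers, had a difference of -0.71 ± 0.09 (edgeR adjusted p 0.00018), while Tdg was not (0.02 ± 0.06, adjusted p 0.79). Its late levels were 28.5, 28.6 and 33.5 CPM untreated and 18.9, 15.1 and 22.3 CPM stimulated, with no overlap. Ung, the uracil glycosylase, fell from the middle to the late phase by 0.69 ± 0.17 untreated and 0.90 ± 0.18 stimulated (edgeR adjusted p 0.021 and 0.0032). The untreated call was lost without 2 h (-0.63, adjusted p 0.092), 3 h (-0.57, adjusted p 0.11) or 12 h (-0.68, adjusted p 0.056).

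Of 5 TET partners and regulators tested, Ogt and Cxxc5 were lower and Sin3a higher late in the stimulated arm, the last not under library totals or without any of 15 min, 30 min, 1, 2, 24 or 48 h. Cxxc5, a CpG-binding relative of the TET binding module, had a late difference of -1.17 ± 0.23 (edgeR adjusted p 0.0021). Ogt, the glycosyltransferase that binds TET2 and TET3, was already lower in the early phase (-0.64 ± 0.05, adjusted p 0.00036), before any of the 7 enzymes was called. Zbtb4, a reader of methylated DNA, was lower in the middle phase (-0.97 ± 0.14, adjusted p 0.0013), and with Mbd4 it made up the 2 of 8 readers lower late. Of 5 de novo partners tested, Nsd1 and Setd2, which write the histone marks that recruit DNMT3A and DNMT3B, were lower late, with a list median of -0.07. Beside the late counts of these lists, 18.3% of all genes were lower and 17.8% higher.

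Of 10 genes of S-adenosylmethionine supply, the methyl donor, 5 rose and 1 fell late over early in the untreated arm and 5 rose and 2 fell in the stimulated arm. Over all genes 22.6% rose and 20% fell untreated, and 29.2% and 25.7% stimulated. Mthfd1 rose by 1.13 ± 0.21 and 1.30 ± 0.21 (edgeR adjusted p 0.0012 and 0.00017). Ahcy, which clears the inhibitor left by methylation, rose by 0.92 ± 0.14 and 1.08 ± 0.14 (edgeR adjusted p 0.00045 and 4.1e-05) and was the 1 gene of this list higher late in the stimulated arm. Of 9 genes of 2-oxoglutarate supply and use, 6 rose and 1 (D2hgdh) fell in each arm. Library totals gave 3 and 4 higher for 2-oxoglutarate supply and 3 and 4 for S-adenosylmethionine supply, and leaving out 30 min gave 3 of each in the untreated arm. Idh1, Idh2 and Glud1 were higher late in the stimulated arm, Idh1 by 0.29 ± 0.07 (edgeR adjusted p 0.0057). In that comparison 17.8% of all genes were higher and 18.3% lower. Idh1 already differed at 0 min, with 28.5 CPM stimulated and 24.7 CPM untreated. Its late minus early interaction was 0.15 ± 0.09 (edgeR adjusted p 0.29). Of the 9 genes 0 passed that interaction, where 10.2% of all genes were called higher and 9.52% lower.

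Among 9061 genes (9062 for Tet1) with a mean of at least 5 CPM, those most like each enzyme over the 20 libraries, by Pearson's r of log2 levels, were Zcchc8 (0.98), Smarca4 (0.976) and Hdgfrp2 (0.972) for Dnmt1. For Tdg they were Lsm6 (0.989), Psmc5 (0.988) and Ercc3 (0.988), and for Dnmt3b Cbfb (0.977), Nin (0.963) and Zfp664 (0.958). Dnmt3a had the loosest likeness, with Vkorc1l1 (0.876), Ptch1 (0.864) and Fam20b (0.857). Tet2 was closest to Cep44 (0.952), Nek1 (0.944) and Ccdc18 (0.936), Tet3 to Tmem241 (0.965), Rnf135 (0.962) and Senp8 (0.962), and Tet1 to Nbr1 (0.956), Senp7 (0.955) and Phf21a (0.947). Among the enzymes themselves, Tet1 and Tet3 had r = 0.901, Dnmt1 and Tdg 0.876, Dnmt3a and Dnmt3b 0.633, Dnmt1 and Dnmt3a 0.158 and Tet3 and Tdg -0.912. These are descriptions over libraries that share the course of time.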

How the data were processed

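Poly-A libraries (TruSeq) of cells labelled spleen were sequenced. The deposited values are whole-number counts per gene. The authors' tools were STAR and HTSeq and their build GRCm38.p3 (mm10), per the submitters' processing notes. Tool versions, annotation and strand setting were not stated there. Positions and exon lengths came from GENCODE vM21 (GRCm38).

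Tests were run with edgeR 4.0.16 (R 4.3.3), by its quasi-likelihood F-test after TMM normalization, on genes reaching 1 CPM in 3 or more libraries, a filter all 7 enzymes passed. P-values were adjusted by Benjamini-Hochberg over all genes tested, with a threshold of 0.05. Differences between arms came from the 18 libraries after 0 min, with time as a factor and 1 treatment term per phase. Changes over time came from all 20 libraries in 8 groups. The SE is the log2 fold change divided by the square root of F. Ratios at single times use CPM plus 0.5 and have no test.

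Partner genes named with values in the text were selected in at least 1 comparison. There they were among the 3 highest or 3 lowest log2 fold changes called, where all times had 1 sign and the mean was at least 5 CPM. Some of their values come from comparisons in which they were not selected, as for Ahcy late over early and for Uhrf1 and Uhrf2 in the stimulated arm. Other partner genes were named after their values were seen. The enzymes and all lists were chosen with earlier results of these data known. Alternatives were RLE factors, library totals, DESeq2 1.42.0, limma-voom (limma 3.58.1), other filters, lane, a spline of time with 3 degrees of freedom, moved phase limits, the 0 min pair as reference, a pseudocount of 2 CPM and each time left out. The fits were tested on simulated counts with known changes seeded in and no trend with time or lane. Such counts cannot tell whether the calls made here, with times in place of replicates, are right. Some items are withheld and not reported here.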

Additional observations from a re-analysis of the deposited data

Results flagged for a closer look

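The difference between arms in Tet3 itself differed between phases: the middle minus early difference was -0.34 ± 0.08 (log2, edgeR adjusted p 0.031), a comparison added after the data had been seen. Its stimulated over untreated difference was 0.20 ± 0.05 early and -0.14 ± 0.06 in the middle phase, and neither passed on its own (edgeR adjusted p 0.093 and 0.095). At 0 min the log2 ratio was already 0.13.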

How the results depend on the processing

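Of 28 calls of single genes, 6 held under every alternative run (Dnmt1, Tdg and Tet3 late over early in both arms). Over 484 alternative values 406 kept direction and call, 78 kept direction only and 0 reversed. Numbers of the 7 genes called moved as follows. Between arms in the middle phase (1) they were 2 with library totals, 0 with moved phase limits, 0 with a spline of time and lane, 0 relative to the 0 min pair and 1 to 2 with each time left out. In the late phase (2) they were 1 with library totals, 1 with moved limits, 0 with a spline of time, 0 with spline and lane, 0 relative to 0 min and 1 to 2 with each time left out. Late minus early (0) gave 1 with library totals and 0 to 1 with each time left out. Over all times (1) it was 0 with spline and lane and 0 relative to 0 min, with Dnmt1 at -0.13 and -0.15. From early to middle it was 0 in both arms with moved limits (7 untreated, 5 stimulated) and 1 to 7 in the untreated arm with each time left out. From middle to late in the untreated arm (2) it was 1 without a filter on low counts, 0 with lane, 1 with moved limits and 0 to 4 with each time left out. The causes were not tested. Lane beside the time factor could not be fitted, since the terms are not separable, and the spline of time and lane was added after seeing the data. Libraries of the arms were paired by time only, with 1 library per arm and time. With library totals the share of all calls that were higher went from 49.9% to 25% (middle), 47.5% to 27.3% (all times) and 56% to 31.2% (middle minus early) between arms. Within the untreated arm it went from 53.4% to 42.2% (early to middle), 51.5% to 38.7% (middle to late) and 53% to 39.1% (early to late), and within the stimulated arm from 53.4% to 37.5% and 53.3% to 40.1% (early to middle and early to late). Tet1, at 23 to 285 counts, is the gene limited by depth.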
